A study of Mus musculus with 12 samples.

Results

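Deep-layer projection neurons lie in the lower layers of the cerebral cortex and send axons out of it, to the thalamus, brainstem and spinal cord. The 9 genes described here, Fezf2, Bcl11b, Tbr1, Sox5, Tle4, Pcp4, Foxp2, Crym and Ldb2, are known marks or regulators of these cells. They were taken as a list by name, and every probe set that the array's annotation pairs with 1 of these genes and no other was used. That gave 27 of the 45101 probe sets on the array and 9 of 18194 genes named by a single symbol. A filter on dim probe sets, described with the tests, kept 23 of the 27 probe sets and at least 1 for each gene. The 4 probe sets below the filter belong to Sox5 (2), Foxp2 (1) and Tle4 (1).

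The study asked how ZNF335, a zinc finger protein called Zfp335 in the mouse, acts in neural stem cells and in neurons that form from them. Cells of C57BL/6 mice received a knockdown of ZNF335 or a control knockdown at E14.5, in days of embryonic life, and were later recovered by fluorescence-activated sorting, per the labels, which name the cells neurons. The 12 arrays form 4 groups of 3: ZNF335 knockdown at 5 days (called long term), control knockdown at 5 days, ZNF335 knockdown at 1 day (called short term) and control knockdown at 1 day. The series design speaks of short hairpin RNA and the titles of small interfering RNA, every sample carries E15.5 as stage and postnatal day 0 as harvest, and the description field of the 6 samples at 5 days names the other group than the title does. Groups below follow the titles. The labels do not say whether samples of a group are from different animals; p-values therefore measure sample-to-sample spread, part or all of which may be technical.

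Fezf2 is a zinc finger transcription factor needed for neurons that project to the brainstem and spinal cord, and Bcl11b (also called Ctip2) is a zinc finger factor that acts after it in the same cells. Tbr1, a T-box factor, directs neurons of the layer that projects to the thalamus and is known to repress Fezf2 there, and Sox5 is an HMG-box factor that sets the timing of the successive deep-layer types. In the developing cortex deep-layer neurons are born before upper-layer neurons, and Fezf2 is also made in the dividing cells from which the early neurons arise. The other members mark deep-layer cells: Tle4 is a corepressor of the Groucho family, Foxp2 a forkhead transcription factor that striatal neurons also make, Ldb2 a cofactor that binds LIM-domain proteins, Pcp4 a small regulator of calmodulin, and Crym a protein that binds thyroid hormone.

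Promoter sequences of RefSeq (GRCm38.p6) were found for 6 of the 9 genes, in 7 windows of the 250 bases before an annotated start. Shown are the windows of Fezf2 and Pcp4, which passed the test between 5 days and 1 day on the normalized values, and of Tbr1, which differed in the opposite direction and passed only under some other settings. They lie at chr14:12345866-12346115 (minus strand), chr16:96467356-96467605 (plus strand) and chr2:61804203-61804452 (plus strand). Capitals mark an E-box (CANNTG, the same on both strands), the motif read by the neurogenic bHLH factors.
Fezf2: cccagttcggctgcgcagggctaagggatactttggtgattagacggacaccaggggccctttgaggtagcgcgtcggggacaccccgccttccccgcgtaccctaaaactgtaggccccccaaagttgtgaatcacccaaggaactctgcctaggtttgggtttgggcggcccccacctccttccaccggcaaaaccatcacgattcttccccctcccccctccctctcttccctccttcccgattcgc
Pcp4: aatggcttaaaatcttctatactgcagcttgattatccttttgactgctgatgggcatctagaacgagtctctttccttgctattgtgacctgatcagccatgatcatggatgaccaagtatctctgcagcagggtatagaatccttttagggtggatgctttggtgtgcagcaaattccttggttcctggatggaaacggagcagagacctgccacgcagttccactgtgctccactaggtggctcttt
Tbr1: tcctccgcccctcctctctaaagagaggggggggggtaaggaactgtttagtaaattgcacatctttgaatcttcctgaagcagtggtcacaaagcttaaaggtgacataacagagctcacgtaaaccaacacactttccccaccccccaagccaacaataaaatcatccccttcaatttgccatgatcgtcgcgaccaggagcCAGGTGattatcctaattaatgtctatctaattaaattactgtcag
E-boxes occurred in 2 of the 7 windows, once in that of Tbr1 and in 1 of the 2 windows of Tle4, against 66.2% of 32851 windows of the same length. The T-box motif TCACACC, read on both strands, was in 0 of the 7, against 3.33% of all windows. The TATA motif TATAAA, also read on both strands, was in 0 of the 7, against 12.4% of all windows. These are matches of letters in a short window and say nothing of where a factor binds.

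Values are the deposited intensities, quantile normalized over the 12 arrays and given as log2(value + 16), the scale of every level and difference below unless it is called deposited. The targeted gene did not separate the groups: its single probe set had deposited intensities of 103, 34.3 and 151 in knockdown cells and 109, 150 and 179 in control cells at 5 days, and of 136, 53.7 and 41.0 in knockdown cells and 139, 46.1 and 127 in control cells at 1 day. The 1 day arrays fell into 2 sets that cross knockdown and control. In knockdowns 2 and 3 and control 2 the hybridisation controls, RNAs added in fixed amounts, averaged 12.68 to 12.82 on the log2 scale of the deposited values, and in knockdown 1 and controls 1 and 3 they averaged 10.84 to 11.83; these are called the strong and the weak set. Control 3 was nearest to the strong set, and on the normalized scale the widest gap would place it there. With control 3 in the weak set, the targeted gene had deposited intensities of 41.0 to 53.7 in the strong and 127 to 139 in the weak set. Knockdown and control cells at 1 day thus each held arrays of both levels of the targeted gene. Arrays correlated at 0.923 to 0.989 within the weak set, at 0.975 to 0.978 within the strong set and at 0.597 to 0.775 between the sets. Knockdown 2 at 5 days had an Actb 3' to 5' ratio of 8.76, against 1.51 to 1.93 in the other arrays at 5 days and 2.09 to 2.91 at 1 day; a high ratio is a sign of shortened RNA. The labels name neurons, and a list of 14 pan-neuronal genes averaged 10.31 to 10.67 in knockdown and 10.42 to 10.57 in control cells at 5 days, and 9.54 to 10.59 in knockdown and 9.82 to 10.66 in control cells at 1 day. The data are of bulk samples, so fewer cells of a type and less RNA per cell cannot be told apart.

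Knockdown of ZNF335 was not followed by a difference in any of the 9 genes that passed the test, at 5 days or at 1 day. At 5 days the log2 fold changes of knockdown over control ran from -0.26 (Fezf2) to 0.36 (Ldb2), with 4 above 0 and 5 below, and at 1 day from -0.46 (Fezf2) to 0.51 (Tle4), with 3 above 0 and 6 below. The test was limma's, fitted over 27022 kept probe sets with Benjamini-Hochberg adjustment, and the brightest kept probe set stood for each gene. It called 0 of the 9 members in each comparison and 0% of all probe sets. No member was under 0.05 before adjustment either, and of the 27022 probe sets 34 at 5 days and 120 at 1 day were. Both shares lie far below the 0.05 that probe sets without any difference would give. The p-values of this fit thus ran high over the whole array, and 0 calls do not show that the genes are unchanged. The members' median was -8.15e-05 at 5 days, against -0.0063 for all probe sets, and -0.18 at 1 day, against -0.098. The smallest adjusted p among the members was 1.0 at 5 days and 0.832 at 1 day. In exact two-sided permutation tests of 3 against 3 arrays, which cannot go below 0.1, the members had p of 0.2 to 1.0 at 5 days and of 0.4 to 0.8 at 1 day. At 5 days 1 scanner read 3 knockdowns and 1 control and another read 2 controls. Without knockdown 2, the array with the high Actb ratio, the 5 day values ran from -0.35 (Foxp2) to 0.27 (Crym), with 0 members called. With the scanner as a block they ran from -0.96 (Foxp2) to 0.36 (Ldb2). Only control cells at 5 days were read on both scanners, so the blocked values set the knockdowns against control 1 alone. At 1 day knockdowns and controls were processed on different fluidics stations, and these cannot be told apart. The intervals, given with each gene below, show how large a difference these arrays leave possible under 1 spread per gene, pooled over all 12 arrays. Each gene thus has the same SE at both times, and the 5 day intervals also carry the spread of the 1 day arrays. Bcl11b had SDs of 0.13 in knockdown and 0.11 in control cells at 5 days, against 0.45 and 0.44 at 1 day. For Tbr1 the SDs were 0.35 and 0.27 at 5 days, against 0.15 and 0.32 at 1 day.

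**Figure D1:**
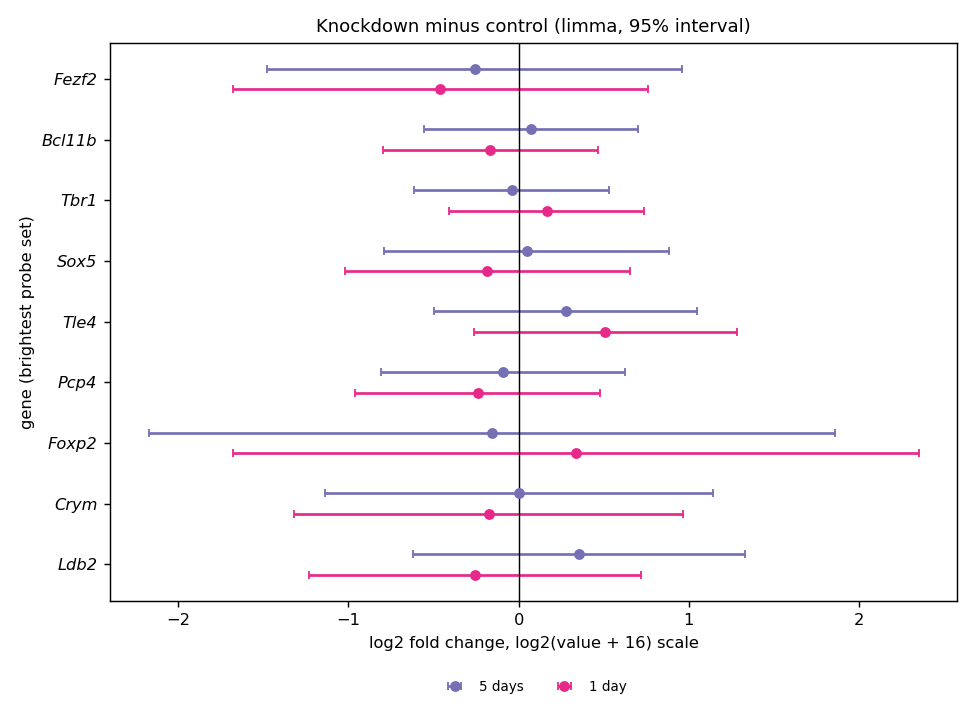
Knockdown minus control for the 9 genes (rows) as limma log2 fold change with its 95% interval (x axis, log2(value + 16) scale), at 5 days and at 1 day. Every interval includes 0, and the widest are those of Foxp2, which reach from -2.17 to 1.86 at 5 days and from -1.68 to 2.35 at 1 day.

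Among the regulators of neurons that project to the brainstem and cord, Fezf2 measured 7.99, 6.84 and 8.32 in knockdown cells and 7.68, 7.83 and 8.42 in control cells at 5 days. At 1 day it measured 10.85, 9.67 and 9.10 in knockdown cells and 11.23, 9.97 and 9.80 in control cells. The groups overlapped at both times, and knockdown 2 at 5 days and knockdown 3 at 1 day were the lowest arrays of their time point. The log2 fold change was -0.26 (SE 0.55, 95% interval -1.48 to 0.96) at 5 days and -0.46 (SE 0.55, interval -1.68 to 0.76) at 1 day. Bcl11b measured 10.54, 10.78 and 10.74 in knockdown cells and 10.59, 10.51 and 10.73 in control cells at 5 days. Its 1 day values were 11.80, 11.15 and 10.94 in knockdown cells and 11.85, 11.55 and 10.99 in control cells. Its arrays were tightly spaced at 5 days and spread over almost a log2 unit at 1 day, with the groups overlapping at both. The difference was 0.074 (SE 0.28, interval -0.56 to 0.70) at 5 days and -0.17 (SE 0.28, interval -0.80 to 0.46) at 1 day.

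Among the genes of neurons that project to the thalamus, Tbr1 measured 11.16, 11.85 and 11.46 in knockdown cells and 11.55, 11.79 and 11.25 in control cells at 5 days. The 1 day arrays gave 10.99, 11.00 and 10.74 in knockdown cells and 10.82, 11.01 and 10.40 in control cells. The groups overlapped at both times, with control 3 the lowest 1 day array, and the log2 fold change was -0.040 (SE 0.26, interval -0.61 to 0.53) at 5 days and 0.16 (SE 0.26, interval -0.41 to 0.74) at 1 day. Sox5 measured 9.01, 9.56 and 9.25 in knockdown cells and 9.18, 9.26 and 9.23 in control cells at 5 days. At 1 day it stood at 10.34, 9.06 and 8.90 in knockdown cells and 10.12, 9.27 and 9.47 in control cells, and knockdown 1 and control 1 stood above the other 4 arrays. The difference was 0.049 (SE 0.38, interval -0.79 to 0.89) at 5 days and -0.19 (SE 0.38, interval -1.02 to 0.65) at 1 day. Tle4, the corepressor, measured 10.81, 10.87 and 10.80 in knockdown cells and 10.82, 10.42 and 10.41 in control cells at 5 days. Its values at 1 day were 10.75, 11.34 and 11.24 in knockdown cells and 10.90, 11.17 and 9.73 in control cells, with control 3 lowest by about a log2 unit. Tle4 had the highest knockdown minus control value of the 9 genes at 1 day, 0.51 (SE 0.35, interval -0.26 to 1.28), and 0.28 (SE 0.35, interval -0.50 to 1.05) at 5 days.

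Among the remaining marks, Pcp4 measured 9.78, 10.06 and 9.94 in knockdown cells and 9.60, 10.34 and 10.12 in control cells at 5 days. At the 1 day point it measured 11.80, 10.71 and 11.10 in knockdown cells and 11.87, 11.12 and 11.34 in control cells. The knockdown values at 5 days all lay inside the control range, and the difference was -0.092 (SE 0.32, interval -0.81 to 0.63) there and -0.24 (SE 0.32, interval -0.96 to 0.48) at 1 day. Foxp2 measured 8.12, 9.34 and 9.43 in knockdown cells and 9.93, 9.84 and 7.60 in control cells at 5 days. Values at 1 day were 8.38, 10.94 and 11.13 in knockdown cells and 8.40, 10.83 and 10.21 in control cells. Its spread within groups (SD 0.73 to 1.53) was the widest of the 9 genes in 3 of the 4 groups, all but knockdown cells at 5 days, and its differences of -0.16 at 5 days and 0.34 at 1 day (SE 0.91 each) were smaller than their errors. Crym measured 7.78, 6.89 and 7.61 in knockdown cells and 7.44, 7.17 and 7.68 in control cells at 5 days, and the group means were equal to 2 decimals, 7.43 and 7.43. At 1 day the values were 8.40, 7.28 and 7.40 in knockdown cells and 9.11, 7.45 and 7.06 in control cells, a difference of -0.18 (SE 0.51, interval -1.32 to 0.96). The 5 day interval of Crym was as wide, from -1.14 to 1.14. Ldb2 measured 9.94, 10.25 and 9.65 in knockdown cells and 9.58, 9.34 and 9.85 in control cells at 5 days. The 1 day values were 9.34, 8.08 and 7.66 in knockdown cells and 9.31, 8.34 and 8.19 in control cells. Its differences were 0.36 (SE 0.44, interval -0.62 to 1.33) at 5 days and -0.25 (SE 0.44, interval -1.23 to 0.72) at 1 day, and the groups overlapped at both times.

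The knockdown effects at 5 days minus those at 1 day ran from -0.50 (Foxp2) to 0.61 (Ldb2) over the members, and limma called 0 of the 9 and 0% of all probe sets (adjusted p = 1.0 for every member), with 0 members and 55 of all probe sets under 0.05 before adjustment. Over all 23 kept probe sets of the members, the groups did not overlap in 1 at 5 days, where 3.01% of all probe sets did not overlap (1.32% higher and 1.69% lower in knockdown), and in 0 at 1 day, where 1.67% did not. The 1 was a second probe set of Foxp2 (1440108_at), singled out after its values were seen. It measured 7.04, 7.03 and 7.18 in knockdown cells and 7.40, 7.37 and 7.31 in control cells, a log2 fold change of -0.28 (SE 0.18, limma adjusted p = 1.0, exact permutation p = 0.1).

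**Figure D2:**
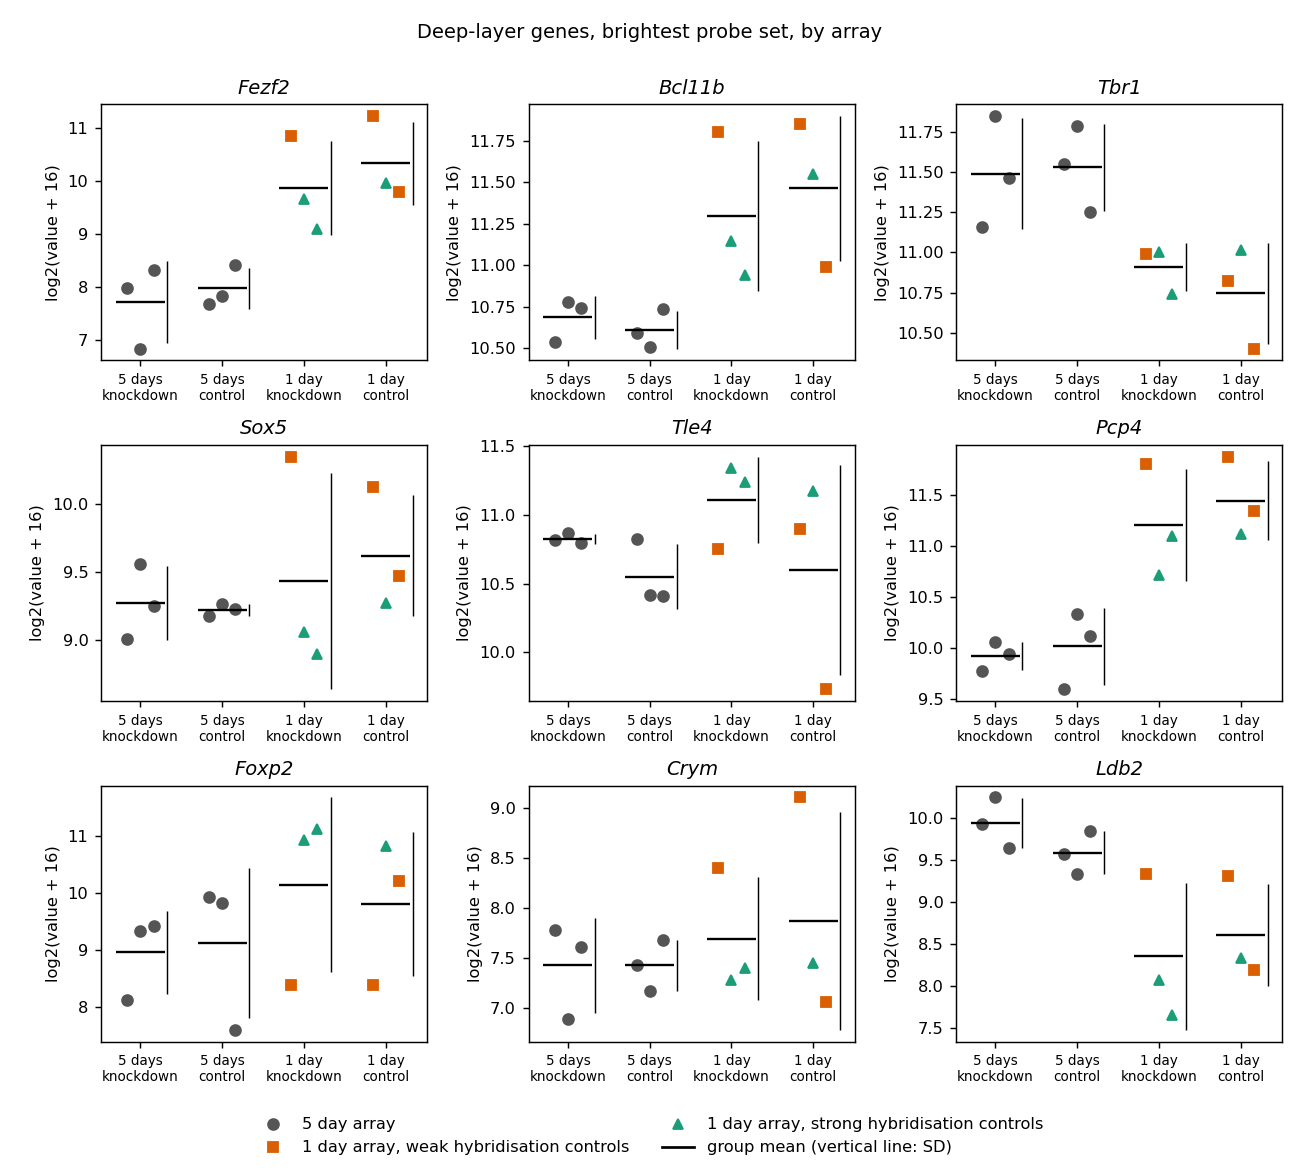
Level of each gene on every array, by its brightest probe set (y axis, log2(value + 16), own range for each gene; x axis, the 4 groups of 3 arrays). Horizontal lines are group means and vertical lines their SD. Squares and triangles mark the weak and strong sets of 1 day arrays. In knockdown cells at 1 day the weak array lies outside the range of the strong ones for every gene but Tbr1. In control cells the strong array lies between the weak ones for Fezf2, Bcl11b, Crym and Ldb2. Fezf2 and Pcp4 lie lower at 5 days than at 1 day in both knockdown and control cells, and Tbr1 and Ldb2 higher.

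Most members differed more between the sets of 1 day arrays than between knockdown and control cells at 1 day. The strong set averaged higher than the weak set for Foxp2 (by 1.97), Tle4 (by 0.79) and Tbr1 (by 0.18). It averaged lower for Fezf2 (-1.05), Ldb2 (-0.92), Sox5 (-0.90), Crym (-0.81), Pcp4 (-0.69) and Bcl11b (-0.33). The gap between the sets was larger in size than the difference between knockdown and control at 1 day in 9 genes, and in 7 with control 3 placed in the strong set or left out, a check chosen after seeing the data. With control 3 in the strong set the gap of Tle4 was 0.044 and that of Tbr1 -0.12, and the other genes kept their direction. The sets were found in the data, so these gaps are given as values and not tested. Within the weak set, knockdown 1 minus the mean of controls 1 and 3 was above 0 in 8 genes, from 0.19 (Pcp4) to 0.59 (Ldb2), and -0.92 in Foxp2. Within the strong set, the mean of knockdowns 2 and 3 minus control 2 was below 0 in 7 genes, from -0.58 (Fezf2) to -0.11 (Crym), and 0.12 in Tle4 and 0.20 in Foxp2. A single array stands on 1 side of each. The signs within the sets were opposite in 8 of the 9 genes, and in 5 with control 3 left out, where knockdown 1 minus control 1 was -0.38 for Fezf2, -0.71 for Crym, -0.076 for Pcp4 and -0.045 for Bcl11b. Other genes differed between the sets as well. Microglial markers (10 measured genes) averaged 5.65 to 5.86 in the strong set and 7.43 to 8.18 in the weak set. Striatal neuron markers, which matter for Foxp2, averaged 8.48 to 8.72 in the strong and 8.06 to 8.16 in the weak set. Pan-neuronal genes overlapped, at 9.54 to 10.04 in the strong and 9.82 to 10.66 in the weak set. The part of these lists in the members' spread was not tested.

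**Figure D3:**
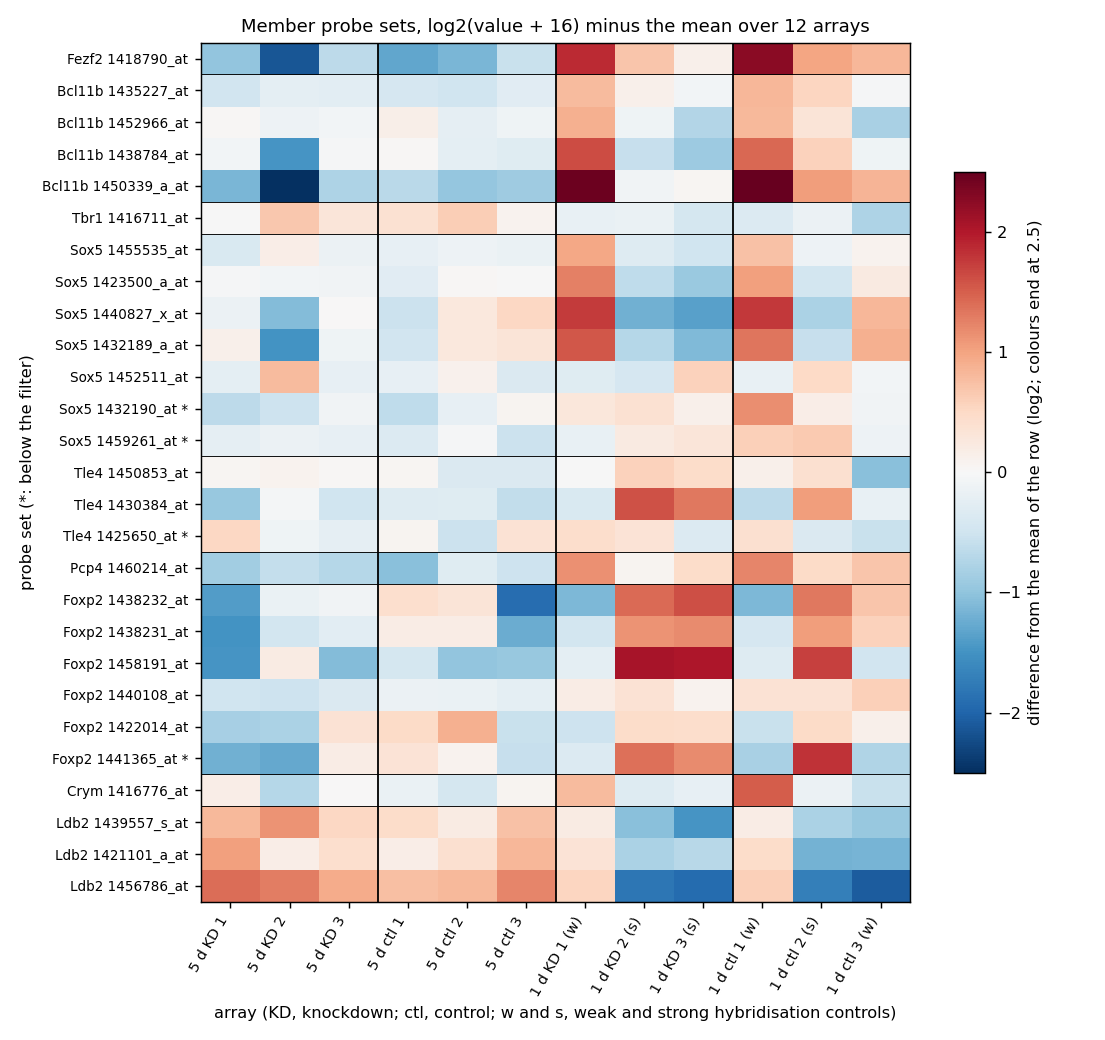
All 27 probe sets of the 9 genes (rows; an asterisk marks the 4 below the filter) on the 12 arrays (columns), as log2(value + 16) minus the mean of the row, with red above and blue below that mean and colours ending at 2.5. Fezf2, Pcp4 and Bcl11b 1450339_a_at are red or pale at 1 day and blue at 5 days, while the Ldb2 rows are red at 5 days; several Sox5 and Foxp2 rows, such as Sox5 1440827_x_at and Foxp2 1458191_at, differ between the weak (w) and strong (s) arrays at 1 day.

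Probe sets of a gene did not always move together. Of the Bcl11b probe sets, 1450339_a_at was lower in the strong than the weak set by a difference of -1.65, where the brightest one differed by -0.33. For Sox5, 1440827_x_at had a gap of -2.57 between the sets, the largest of any member probe set, against -0.90 for the brightest. Tle4 1430384_at and Foxp2 1458191_at differed by 1.72 and 2.28 in the same direction as their genes' brightest probe sets. Knockdown minus control over these other probe sets at 1 day reached -0.87 (Sox5 1440827_x_at, SE 0.85) and 0.98 (Foxp2 1458191_at, SE 0.74), and limma called 0 of the 18 other probe sets, kept or not, at either time.

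The comparison of 5 days with 1 day was made within knockdown and within control cells. It showed 2 members past the test, both lower at 5 days: Fezf2 and Pcp4. In knockdown cells Fezf2 averaged 7.72 ± 0.78 at 5 days and 9.87 ± 0.89 at 1 day, and in control cells 7.98 ± 0.39 at 5 days and 10.33 ± 0.78 at 1 day (SD, n = 3 each). Its log2 fold change was -2.15 in knockdown cells (SE 0.55, limma adjusted p = 0.0480) and -2.35 in control cells (SE 0.55, limma adjusted p = 0.0476). Pcp4 averaged 9.93 ± 0.14 at 5 days and 11.20 ± 0.55 at 1 day in knockdown cells, and 10.02 ± 0.38 at 5 days and 11.44 ± 0.39 at 1 day in control cells (SD, n = 3 each). Its log2 fold change was -1.28 in knockdown cells (SE 0.32, limma adjusted p = 0.0476) and -1.42 in control cells (SE 0.32, limma adjusted p = 0.0432). All 3 arrays at 5 days lay below all 3 at 1 day for both genes in both comparisons, with an exact permutation p of 0.1, the smallest possible. Of all probe sets, 9.43% in knockdown and 12.7% in control cells lay wholly lower at 5 days.

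These 2 calls of 9 stand beside a background of 5.98% of all probe sets called in knockdown cells (4.05% higher and 1.93% lower) and 3.28% in control cells (2.02% higher and 1.25% lower). Both lie just under the threshold of 0.05. When 1 of the 6 arrays of a comparison was left out, neither gene passed any longer in 5 of 6 cases in knockdown cells and in 6 of 6 in control cells. The log2 fold change of Fezf2 then ran from -2.54 to -1.67 in knockdown and from -2.62 to -1.91 in control cells, and that of Pcp4 from -1.52 to -0.98 and from -1.59 to -1.21. Without knockdown 1 at 1 day, an array of the weak set, both genes passed in knockdown cells (limma adjusted p = 0.0422 for Fezf2 and 0.0403 for Pcp4), and so did Ldb2, higher by 2.08 (limma adjusted p = 0.00572). With that array left out, limma called 7727 of all 27022 probe sets in knockdown cells, against 1616 with it. Every array at 1 day came from a chip lot and a fluidics station that no array at 5 days shared, so time cannot be told apart from these. All knockdown arrays at 5 days were read on another scanner than those at 1 day, and the same holds for 1 of 3 control arrays at 5 days. A scanner block can therefore draw only on control 1 against controls 2 and 3 at 5 days. The control values then leave control 1 out of the 5 day mean, and the knockdown values shift by the gap between control 1 and controls 2 and 3. With the scanner as a block, Fezf2 had -1.71 in knockdown cells (SE 1.03, limma adjusted p = 0.723) and -2.21 in control cells (SE 0.64, limma adjusted p = 0.186), and Pcp4 had -0.65 (SE 0.57, limma adjusted p = 0.725) and -1.21 (SE 0.35, limma adjusted p = 0.188). The Actb 3' to 5' ratio also went with time, at 1.51, 8.76 and 1.93 in knockdown and 1.64 to 1.78 in control arrays at 5 days, against 2.09 to 2.84 in knockdown and 2.09 to 2.91 in control arrays at 1 day, and its part in these differences was not tested.

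The scaling of the arrays bears on all time comparisons. Deposited values averaged 552 to 625 in knockdown and 573 to 656 in control arrays at 5 days, and 272 to 326 in knockdown and 268 to 327 in control arrays at 1 day. Quantile normalization removed that gap, and without it the median log2 fold change of all kept probe sets was 0.87 in both knockdown and control cells, against 0.057 in knockdown and 0.0028 in control cells with it. Without normalization Fezf2 had a log2 fold change of -1.06 in knockdown cells (limma adjusted p = 0.117) and -1.16 in control cells (limma adjusted p = 0.0875), and Pcp4 0.075 and -0.0063. Relative to the median of all probe sets, Fezf2 then stood at -1.92 and -2.03 and Pcp4 at -0.79 and -0.88. Fezf2 was thus lower at 5 days with and without normalization, and Pcp4 was near 0 without normalization and lower relative to the median of all probe sets.

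Tbr1 and Ldb2 went the other way without passing the test. Tbr1 averaged 11.49 ± 0.35 at 5 days and 10.91 ± 0.15 at 1 day in knockdown cells, and 11.53 ± 0.27 at 5 days and 10.75 ± 0.32 at 1 day in control cells (SD, n = 3 each). The log2 fold change was 0.58 (SE 0.26, limma adjusted p = 0.193) in knockdown cells and 0.79 (SE 0.26, limma adjusted p = 0.141) in control cells. Ldb2 averaged 9.95 ± 0.30 at 5 days and 8.36 ± 0.88 at 1 day in knockdown cells, and 9.59 ± 0.26 at 5 days and 8.61 ± 0.61 at 1 day in control cells (SD, n = 3 each). It differed by 1.59 (SE 0.44, limma adjusted p = 0.0610) and by 0.98 (SE 0.44, limma adjusted p = 0.289). Its 3 probe sets were all higher at 5 days, with log2 fold changes of 0.93 to 2.27 in knockdown and of 0.98 to 1.99 in control cells. Arrays at 5 days did not overlap those at 1 day for Tbr1 and Ldb2 in either comparison. Of all probe sets, 13.7% in knockdown and 17.1% in control cells lay wholly higher at 5 days. Without normalization both were again higher, Tbr1 by 1.90 and Ldb2 by 2.60 in knockdown cells, and by 2.29 and 2.10 in control cells, and all 4 differences passed the test (largest limma adjusted p = 0.000173). Relative to the median of all probe sets these were 1.03 for Tbr1 and 1.73 for Ldb2 in knockdown cells, and 1.42 and 1.22 in control cells. The background without normalization was 13508 of 27022 probe sets called in knockdown and 13122 in control cells.

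Bcl11b had log2 fold changes of -0.61 (SE 0.28, limma adjusted p = 0.210) in knockdown cells and -0.85 (SE 0.28, limma adjusted p = 0.146) in control cells. The arrays did not overlap between 5 days and 1 day. Its probe sets spread from -2.28 (1450339_a_at) to -0.069 (1452966_at) in knockdown and from -2.35 to -0.17 for the same probe sets in control cells. The remaining 4 genes had smaller differences relative to their errors: Sox5 had -0.16 in knockdown and -0.40 in control cells, Tle4 -0.28 and -0.050, Crym -0.27 and -0.45, and Foxp2 -1.19 and -0.69. On the normalized values, limma's adjusted p for these 4 lay between 0.426 and 0.961. The sign of Bcl11b, Sox5, Tle4, Crym and Foxp2 turned without normalization, to 0.71, 1.07, 1.09, 0.22 and 0.0070 in knockdown and to 0.57, 0.96, 1.44, 0.041 and 0.56 in control cells. Of these, Sox5 passed the test in both (limma adjusted p = 0.00660 in knockdown and 0.0127 in control cells) and Tle4 in control cells (limma adjusted p = 0.0151). These passes stand beside the 13508 and 13122 of 27022 probe sets called without normalization in knockdown and control cells. In Foxp2, the probe set 1440108_at was lower at 5 days with no overlap, by -0.67 (SE 0.18, limma adjusted p = 0.0555) in knockdown and by -0.62 (SE 0.18, limma adjusted p = 0.0985) in control cells. Over the 9 genes, the arrays at 5 days lay wholly above those at 1 day in 2 genes and wholly below in 3 in knockdown cells, where 23.2% of all probe sets did not overlap (13.7% above and 9.43% below). In control cells they lay wholly above in 2 genes and below in 4, where 29.8% of all probe sets did not overlap (17.1% above and 12.7% below).

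**Figure D4:**
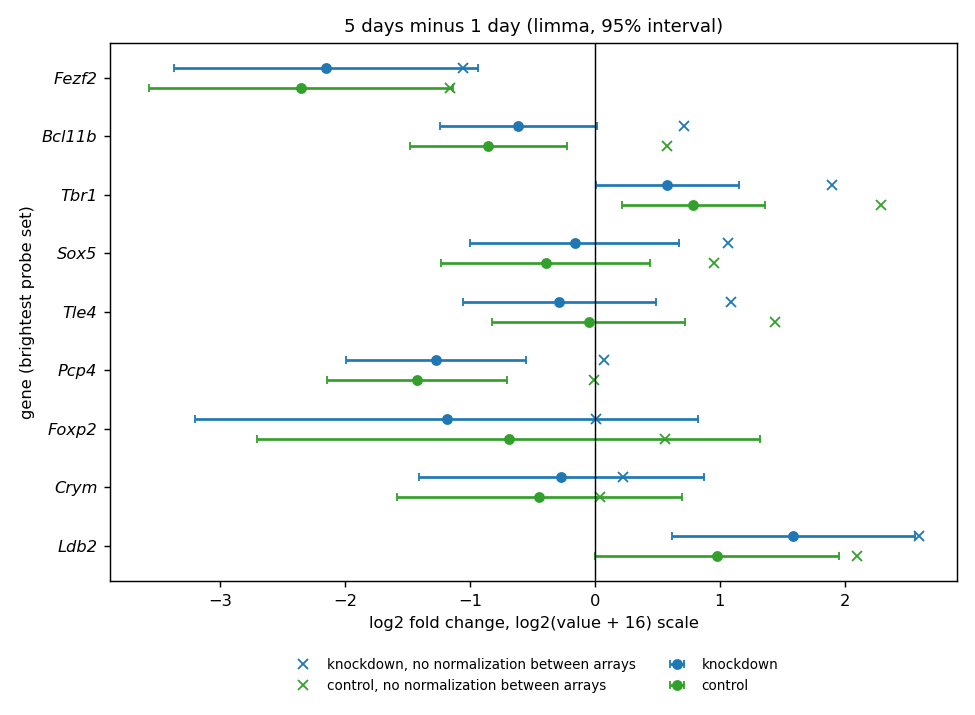
5 days minus 1 day for the 9 genes (rows) as log2 fold change on the log2(value + 16) scale (x axis), in knockdown and in control cells. Points with bars are the limma estimates with their 95% intervals and crosses the estimates without normalization between arrays; the crosses lie to the right of the points for every gene, and those of Fezf2 alone lie clearly below 0.

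A list of 30 other deep-layer and subplate genes had 28 on the array and 20 past the filter. In the knockdown comparisons limma called 0 of the 20, with 13 above 0 and 7 below at 5 days (median 0.085) and 4 above 0 and 16 below at 1 day (median -0.24). In the time comparisons 12 were above 0 and 8 below in knockdown cells (median 0.64), and 9 above 0 and 11 below in control cells (median -0.047). The 1 call among them was Lix1, lower at 5 days in knockdown cells by -1.81 (SE 0.39, limma adjusted p = 0.0270). Of all probe sets, 1.93% were called lower in that comparison. Lix1 measured 7.20, 7.38 and 7.38 in knockdown cells at 5 days and 8.29, 9.49 and 9.61 in knockdown cells at 1 day. In control cells it differed by -0.66 (SE 0.39, limma adjusted p = 0.440), and whether the 2 differences differ was tested only as the difference of knockdown effects, which was -1.14 (SE 0.55, limma adjusted p = 1.0).

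Markers of other cells also differed with time on the normalized values. Their counts without normalization are not given. Of all probe sets, 4.05% were called higher and 1.93% lower in knockdown cells, and 2.02% higher and 1.25% lower in control cells. Intermediate progenitor markers, which label dividing cells on the way to neurons, were below 0 in 7 of 7 genes in both comparisons with 4 called lower in each (median -1.59 in knockdown and -1.26 in control cells). Upper-layer neuron genes were above 0 in 10 of 14 genes in both, with 2 called higher in knockdown and 1 in control cells. Interneuron markers were above 0 in 9 of 10, with 4 called higher in knockdown and 6 in control cells. Their mean level was 8.21 to 8.98 in knockdown and 8.53 to 8.93 in control cells at 5 days, and 6.09 to 7.68 in knockdown and 6.27 to 7.29 in control cells at 1 day. Microglial markers were above 0 in 10 of 10 genes with 0 called, and their level ran from 7.56 to 10.99 in knockdown and from 7.89 to 10.14 in control cells at 5 days, against 5.65 to 7.43 in knockdown and 5.86 to 8.18 in control cells at 1 day. Endothelial and pericyte markers ran from 7.41 to 10.84 in knockdown and from 7.52 to 10.24 in control cells at 5 days, against 7.20 to 7.92 and 7.32 to 8.09 at 1 day. Striatal and pan-neuronal genes had 0 called in either comparison, radial glia 1 higher and 1 lower of 11 in knockdown and 0 in control cells, and Cajal-Retzius cells 1 lower of 8 in knockdown and 0 in control cells. Called higher were 2 of 6 oligodendrocyte precursor genes in both comparisons, 1 of 6 astrocyte genes in knockdown and 2 in control cells, and 1 of 6 genes of meninges and fibroblasts in both, while the 1 measured erythroid gene was called lower in both. In the knockdown comparisons limma called 0 genes of any of these lists. The part of these markers in the differences of Fezf2, Pcp4, Tbr1 and Ldb2 was not tested.

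The mean of the 9 genes, each centred on its own mean over 12 arrays, ran from -0.34 to -0.11 in knockdown and from -0.32 to -0.19 in control cells at 5 days, and from -0.0017 to 0.49 in knockdown and from -0.11 to 0.60 in control cells at 1 day. Single members followed it unequally. Pearson's r over the 12 arrays between a gene and the mean of the other 8 was 0.95 for Bcl11b, 0.74 for Pcp4, 0.63 for Fezf2, 0.62 for Sox5, 0.55 for Crym and 0.19 for Tle4. It was -0.35 for Foxp2, -0.55 for Ldb2 and -0.56 for Tbr1. The 5 genes outside the list with the profile most like the mean were Nup88, a nuclear pore protein gene (r = 0.96), Lhx2, a LIM-homeodomain factor of cortical progenitors (0.93), Hs3st4, a heparan sulphate sulphotransferase (0.92), Idnk, a gluconate kinase (0.92), and Rfx5, a DNA-binding factor of MHC class II genes (0.91). Hs3st4 was also in the list of other deep-layer genes, and Lhx2 in that of upper-layer neurons. The arrays share time, lot and the sets at 1 day, so these correlations are descriptions.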

How the data were processed

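Total RNA of 12 samples was hybridised to Affymetrix 3' arrays, per the labels. In the authors' deposited table each probe set has 1 intensity per array; the values look linear. The sources used here do not give the summary over probes. The deposited instrument files hold chip lot, station and scanner (text fields of other kinds) and no expression values. The intensities were quantile normalized across arrays and turned into log2 after adding 16, which understates fold changes of dim probe sets. Of the probe sets other than 64 controls, the upper 60% by overall mean (27022, mean log2 of at least 6.51) entered limma 3.58.1 in R 4.3.3. A model of the 4 group means without covariates left 8 residual degrees of freedom for its moderated test (eBayes), and p-values were adjusted by Benjamini-Hochberg over those probe sets, at 0.05. The number of arrays limits the precision.

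The members, the comparisons and the 15 marker lists were chosen with earlier results of these data known. All 9 members are named, with their brightest kept probe set as the value of the gene. Also named, by rule, are the 5 genes of the most alike profile (Pearson's r over 12 arrays) and up to 4 other deep-layer genes past the test in each direction. Gene names come from the platform annotation, and 0 probe sets were shared by a member and another gene. No pair of arrays had more than 0.397% of values identical. In data simulated for the 5 day knockdown comparison, 171 of 200 probe sets changed by a log2 of 2 were called among 27022, with 19 false calls. The changed probe sets were drawn only from those with the smaller residual spread. The share called therefore does not hold for noisier probe sets, such as that of Foxp2. The 19 false calls beside the 171 are a larger share than the threshold of 0.05. In the measured 5 day knockdown comparison, 34 of 27022 probe sets were under 0.05 before adjustment, so its p-values ran high. The simulated share therefore does not tell how many changes of that size the test would find in the measured arrays. Alternatives covered normalization, the added constant, the filter, probe set averaging, blocks, samples in the fit and each array left out.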

Additional observations from a re-analysis of the deposited data

How the results depend on the processing

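The count of 0 called probe sets held in the 2 knockdown comparisons and in their difference under every alternative run, and 0 members were called there. The difference of knockdown effects was fitted for each gene under each alternative as well: of 189 values 0 passed the test and 18, in 6 genes, turned sign. In the time comparisons Fezf2 stayed negative under all 18 alternatives and past the threshold in 7 of them in knockdown and in 7 in control cells; among the settings that lost its calls were no normalization, quantile normalization within each time point, an added 1, the scanner as a block and knockdown or control arrays alone, and the cause was not tested. Pcp4 passed in 6 alternatives in knockdown and in 7 in control cells, Ldb2 in 6 and 4, Tbr1 in 2 and 3, Sox5 in 2 and 2, Tle4 in 1 and 2, Bcl11b in 0 and 1, Foxp2 in 1 and 0, and Crym in 0 and 0. The counts of called probe sets, in knockdown and then control cells, were 13508 and 13122 without normalization, 13056 and 12232 with normalization within each time point, 3026 and 1702 with no filter, 918 and 528 genes with probe sets averaged, 44 and 279 with the scanner as a block, 6327 and 6213 with the hybridisation control sets as a block, and 146 and 380 with knockdown or control arrays alone. With short term arrays of the weak set only, an alternative chosen after seeing the data, the count was 217 in knockdown cells, and with those of the strong set only 12415 and 6753. The weak set holds 1 knockdown and the strong set 1 control at 1 day, so the 217 and the 6753 rest on a group of 1 array that is assumed to vary like the others. The scanner block drew its term only from control 1 against controls 2 and 3 at 5 days, so the 44 and the 279 rest on that gap. Leaving out 1 array gave 341 to 7727 in knockdown cells, the highest without knockdown 1 at 1 day, and 247 to 614 in control cells.

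Signs turned as follows. Without normalization the time differences were 0.71 (Bcl11b), 1.07 (Sox5), 1.09 (Tle4), 0.075 (Pcp4), 0.0070 (Foxp2) and 0.22 (Crym) in knockdown cells and 0.57 (Bcl11b), 0.96 (Sox5), 1.44 (Tle4), 0.56 (Foxp2) and 0.041 (Crym) in control cells, and the 5 day knockdown effect of Crym was 0.14. With normalization within each time point they were 0.78 (Bcl11b), 1.11 (Sox5), 1.15 (Tle4), 0.12 (Pcp4), 0.028 (Foxp2) and 0.19 (Crym) in knockdown cells and 0.50 (Bcl11b), 0.94 (Sox5), 1.40 (Tle4), 0.54 (Foxp2) and 0.066 (Crym) in control cells. With weak set arrays only, and thus against 1 array in knockdown cells, they were 0.073 (Tle4) and 0.58 (Foxp2) in knockdown and 0.24 (Tle4) in control cells, and with strong set arrays only 0.29 (Sox5) and 0.084 (Crym) in knockdown cells. At 5 days the knockdown effect became 0.0064 for Crym with an added 64, and -0.23 for Bcl11b and -0.13 for Sox5 with probe sets averaged. With the scanner as a block, which sets the 5 day knockdowns against control 1 alone, it became 0.037 for Fezf2 and 0.33 for Pcp4. At 1 day it became 0.13 for Sox5, -0.36 for Foxp2, 0.11 for Crym and 0.060 for Ldb2 with the hybridisation control sets as a block.

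Leaving out 1 array gave 5 day knockdown effects of -0.56 to 0.18 (Fezf2), -0.22 to 0.13 (Tbr1), -0.094 to 0.18 (Sox5), -0.30 to 0.067 (Pcp4), -0.92 to 0.26 (Foxp2) and -0.18 to 0.27 (Crym). At 1 day they ran over -0.42 to 0.027 (Bcl11b), -0.0089 to 0.30 (Tbr1), -0.64 to 0.083 (Sox5), -0.54 to 0.0037 (Pcp4), -0.37 to 1.22 (Foxp2), -0.58 to 0.44 (Crym) and -0.75 to 0.096 (Ldb2). The time differences that turned ran over -0.43 to 0.29 (Sox5) and -0.47 to 0.084 (Crym) in knockdown cells and -0.49 to 0.24 (Tle4), -1.40 to 0.068 (Foxp2) and -0.85 to 0.17 (Crym) in control cells.

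With the replicate number as a block, 2153 probe sets were called between time points in knockdown cells and 990 in control cells. Deviations of same-numbered arrays from their group means correlated at -0.13, -0.016 and 0.096 at 5 days and at 0.92, 0.90 and -0.42 at 1 day. The 1 day arrays numbered 1 are of the weak set and those numbered 2 of the strong set. Number and set cannot be told apart there, so these values do not settle whether the numbers pair the samples. Under the replicate block Fezf2 kept limma adjusted p of 0.0374 and 0.0409 in knockdown and control cells, Pcp4 had 0.0573 and 0.0618, and Ldb2 in knockdown cells passed at 0.0420; no other member changed its call.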
